A study of Mus musculus with 12 samples.

Results

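Ccl2, Ccl7, Cxcl5, Cxcl12 and Ackr3 encode 4 chemokines and a receptor that takes chemokines up. They were followed across 12 one-colour arrays of mouse cell-line RNA. The members were the array's spots whose current mouse symbol is one of these 5 names, after old symbols were updated by Entrez identifier. Each gene had 1 spot, so the set was 5 of the 4605 distinct genes named on 5030 spots. The 5 were chosen because the osteocyte and osteoblast lines were already known to differ in them, so their difference between the lines is described here without a test. The tests concern culture density, which the choice did not use, and other genes of the pathway.

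The arrays fall into 4 groups of 3, and each cell type is represented by 1 line. The 2T3 line is an osteoblast line from a mouse whose SV-40 T antigen transgene was under the BMP-2 promoter. Its groups are labelled C0 and low, and the labels contrast low density with confluency. The MLO-Y4 line is an osteocyte line from a mouse whose T antigen was under the osteocalcin promoter. Its groups are labelled low and high, and the labels contrast cells with and without gap junctions. C0 is read as the confluent group, and high as the group with gap junctions, only because the other group of each line is called low. No agent, age or strain is given in the labels. All 12 arrays hold RNA of cells immortalised by T antigen, and the lines differ in the promoter behind it. Cell type, line, promoter and source mouse cannot be told apart in any difference between the lines. Replicates are numbered 1 to 3 without a statement that they came from separate cultures, so the p-values reflect array-to-array spread alone, and that spread may be technical. Same-numbered MLO-Y4 arrays deviated together, and the comparison of the lines treats them as independent. The SEs and p-values of line differences may therefore be too small.

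Chemokines are small secreted proteins that draw leukocytes along a gradient. They act through receptors coupled to G proteins. CCL2 and CCL7 attract monocytes through the receptor CCR2, and monocytes are the cells from which osteoclasts form. CXCL5 attracts neutrophils through CXCR2. CXCL12 is the bone-marrow chemokine that retains haematopoietic stem cells and is classically made by stromal and osteoblast-lineage cells. ACKR3, once called CXCR7, binds CXCL12 with high affinity but does not signal through G proteins, and it carries the chemokine into the cell for degradation. Cxcl12 and Ackr3 are therefore a ligand and its scavenger.

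Promoters are shown for this ligand and scavenger pair because no others of the 5 genes had an entry. RefSeq's promoter table for GRCm38.p6 matched 2 of the 5 genes, Ackr3 and Cxcl12, and had no entry for Ccl2, Ccl7 or Cxcl5. The 250 bases before the annotated start are given, 5′ to 3′ on the plus strand, for Ackr3 at chr1:90203730-90203979 and for Cxcl12 at chr6:117168285-117168534. Capitals mark the TATA box letters TATAAA and the GC box letters GGGCGG, searched on both strands, where the minus-strand GC box reads CCGCCC.
Ackr3: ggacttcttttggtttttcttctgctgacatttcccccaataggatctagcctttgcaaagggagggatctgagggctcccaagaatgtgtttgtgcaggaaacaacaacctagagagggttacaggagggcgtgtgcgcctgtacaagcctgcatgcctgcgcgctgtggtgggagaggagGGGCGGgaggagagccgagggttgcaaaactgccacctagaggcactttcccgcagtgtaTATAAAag
Cxcl12: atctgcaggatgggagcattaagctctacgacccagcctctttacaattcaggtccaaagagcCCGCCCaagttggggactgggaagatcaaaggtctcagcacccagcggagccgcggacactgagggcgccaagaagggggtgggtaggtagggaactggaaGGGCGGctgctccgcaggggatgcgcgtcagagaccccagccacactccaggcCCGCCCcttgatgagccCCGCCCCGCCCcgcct

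The Ackr3 window held 1 TATA box, which began 8 bases before the start, and 1 GC box at 68 bases. The Cxcl12 window held no TATA box and 5 GC boxes, of which the 2 nearest the start overlap each other by a base. A looser kB-like pattern (GGG, then any 5 bases, then CC, on either strand) had 1 match in Cxcl12, beginning 36 bases before the start and overlapping the GC box at 33 bases, and 0 in Ackr3. Of 32851 promoters of the same length, 12.4% held the TATA letters, 32.7% the GC box and 45.8% the kB-like pattern. Bases G and C made up 54% of the Ackr3 window and 64.4% of the Cxcl12 window. These matches describe the letters only.

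The arrays differed in brightness and in how much of them could be read. Levels are spot intensities scaled so that all arrays have the same median (scaled intensity, in arbitrary units). A spot counts as above the limit of an array when its intensity is larger than the size of that array's lowest, negative value. The share of spots above it ranged from 37.9% to 74.8% by array. The 2 MLO-Y4 arrays numbered 1, one at each density, stood apart, with limits of 34.3 and 36.3 scaled units against 4.04 to 13.6 on the other 10 arrays. The dimmest array was 2T3 low replicate 3, with a deposited median of 4, where the medians ran from 4 to 55. On it 1 deposited unit is 4.54 scaled units, so low readings there are coarse. Ccl2 and Ackr3 were deposited there as 7 and 6. Values under 3.96 were raised to that floor before log2 was taken. With equal medians, the 1253 spots above the limit everywhere had a median difference between MLO-Y4 and 2T3 of 0.79 on the log2 scale. That median was 0.04 after quantile normalization and -0.07 when the scale was set on those spots (detected-spot scaling). Differences between the lines should be read against that shift.

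The lines were first described by markers of their cell types, in a comparison where limma called 8.23% of all spots higher in MLO-Y4 and 1.87% lower. The lists were chosen with earlier results of these data known, so the marker counts are a description. Of 7 measured osteocyte markers, 4 were higher in MLO-Y4 and 0 lower in limma at an adjusted p of 0.05. They were the podoplanin gene Pdpn (log2 3.46, SE 0.70, adjusted p = 0.00984), Dstn (3.45), Cd44 (3.15) and Capg (2.37). The calls of Cd44 (limma adjusted p = 0.0833) and Capg (0.0573) were each lost in 1 of 19 alternative fits, without both MLO-Y4 arrays numbered 1. Phex, an endopeptidase gene of osteocytes, was above the limit on none of the 12 arrays. Of 12 measured osteoblast markers, 2 were higher in MLO-Y4 and 1 lower, against 0 and 2 after quantile normalization and 0 and 3 under detected-spot scaling. Over all spots, 414 were called higher and 94 lower with equal medians. Those counts were 289 and 173 after quantile normalization and 240 and 308 under detected-spot scaling. The osteoblast markers higher with equal medians were the homeobox gene Dlx3 (10.4-fold, adjusted p = 0.0134) and the alkaline phosphatase gene Alpl (7.22-fold, adjusted p = 0.0389), and the homeobox gene Msx2 was lower. The calls of Alpl and Msx2 were lost in 9 and 8 of 12 fits that left out 1 array. The bone matrix gene Bglap, which marks mature osteoblasts, was detected on 6 of 6 2T3 and 4 of 6 MLO-Y4 arrays and did not pass (adjusted p = 0.441). In macrophage and osteoclast markers 0 of 12 were higher in MLO-Y4 and 1, Tyrobp, was lower. The pan-leukocyte gene Ptprc was above the limit on no array. The summed level of that list ran from 163 to 437 in 2T3 C0, 318 to 381 in 2T3 low, 212 to 573 in MLO-Y4 low and 207 to 849 in MLO-Y4 high.

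The monocyte chemokine genes Ccl2 and Ccl7 were low in 2T3 and high in MLO-Y4 at both densities. They are neighbours on mouse chromosome 11 in RefSeq, with 0 annotated genes starting between them. On the replicates numbered 1, 2 and 3, Ccl2 read 11.8, 23.0 and 50.2 in 2T3 C0 and 11.1, 45.1 and 31.8 in 2T3 low. In MLO-Y4 it read 3210.4, 972 and 2142 at low density and 3612, 2619.6 and 3166 at high density. The lowest MLO-Y4 array thus lay above the highest 2T3 array, and every 2T3 array was above its limit, although 2T3 C0 replicate 1 exceeded a limit of 10.3 only narrowly. Geometric means were 24.5 over the 6 2T3 arrays and 2419 over the 6 MLO-Y4 arrays, a 98.6-fold difference (log2 6.62, SE 0.49). RNA was taken from whole cultures, so fewer cells making a transcript and less of it per cell cannot be told apart here or below.

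Ccl7 was read as background in the osteoblast line. It read 8.69, 2.42 and -1.65 in 2T3 C0 and 17.2, 0.627 and -4.54 in 2T3 low, and it was above the limit only on 2T3 low replicate 1. In MLO-Y4 the same spot read 3534, 1592 and 4388 at low density and 3822, 2028 and 6080.5 at high density. The groups of the lines did not overlap. The fitted 562-fold difference over both densities (log2 9.14, SE 0.50) rests on 2T3 values at or near the floor. In the dense groups, where no 2T3 C0 array was above its limit, the MLO-Y4 high level of Ccl7 was at least 345-fold higher than the mean of the 2T3 limits under detected-spot scaling, and that bound was 413-fold after quantile normalization and 587-fold with equal medians. At low density the fitted difference was 8.82 (SE 0.71), and it was 9.65 without 2T3 low replicate 1.

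Cxcl5, the neutrophil chemokine gene, was detected on every array of both lines. It read 89.3, 164 and 254 in 2T3 C0 and 233, 304 and 486 in 2T3 low. In MLO-Y4 it read 3072, 4059 and 4556 at low density and 8303, 4897 and 7875 at high density. The ranges of the lines lay well apart. The difference over both densities was 22.8-fold (log2 4.51, SE 0.35), and it was 12.3-fold with quantile normalization and 12.6-fold with detected-spot scaling. By group it was 11.8-fold at low density and 44.2-fold in the dense groups.

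Cxcl12 was the only one of the 5 genes that was lower in the osteocyte line, with the widest spread of the 5 there. It read 474, 402 and 312 in 2T3 C0 and 299, 111 and 336 in 2T3 low. In MLO-Y4 it read 9.08, 131 and 57.5 at low density and -10.1, 119 and 7.57 at high density, and 3 of these 6 arrays were above their limits. At low density the lines overlapped, because 2T3 low replicate 2 lay below MLO-Y4 low replicate 2, and under the other 2 scalings they did not. In the dense groups they did not overlap, a trait of 4.75% of spots in that direction. The difference over both densities was -3.56 on the log2 scale (SE 0.88, 11.8-fold), and -4.12 and -4.23 with quantile normalization and detected-spot scaling. It was smaller, -2.82 and -2.0, with the floor at the 50th percentile and with an offset of 50 in place of the floor.

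The size of the Cxcl12 difference leaned on single MLO-Y4 arrays. It was -4.30 without MLO-Y4 high replicate 2, the array of that group with a reading above its limit, and -2.53 without both MLO-Y4 arrays numbered 1, where Cxcl12 was below the high limits named above. At low density it was -2.45 (SE 1.24), -1.36 without MLO-Y4 low replicate 1 and -3.29 without replicate 2. In the dense groups it was -4.68 (SE 1.24), -3.70 without MLO-Y4 high replicate 1 and -6.14 without replicate 2. All of these values stayed below 0.

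Ackr3, the scavenger of CXCL12, was high in the line that was low in Cxcl12. It read 15.8, 20.6 and 14.2 in 2T3 C0 and 26.2, 25.1 and 27.3 in 2T3 low, above the limit each time. In MLO-Y4 it read 1323, 371 and 666 at low density and 1213, 467 and 745 at high density. The groups of the lines were far apart, and the 2T3 arrays were close together, although the 27.3 is a deposited 6 on the dimmest array. The difference was 34.4-fold (log2 5.11, SE 0.38), and 24.7-fold and 19.0-fold with quantile normalization and detected-spot scaling.

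**Figure D1:**
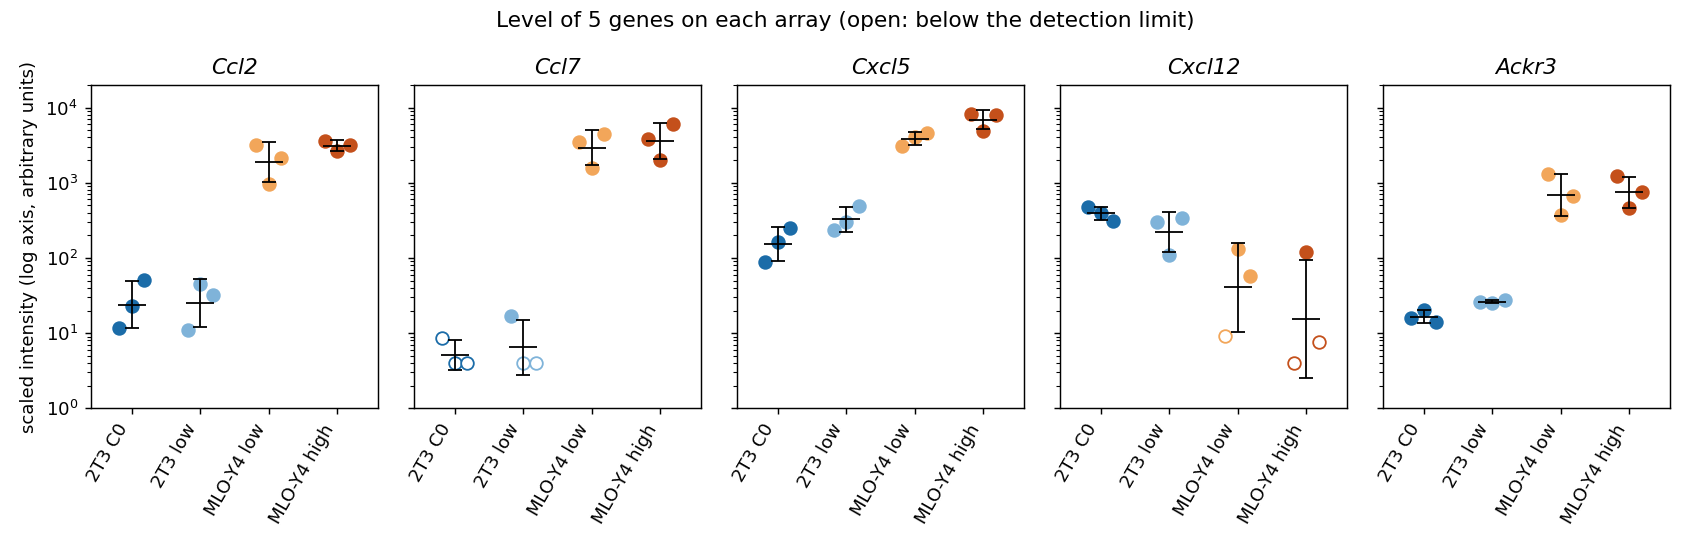
Scaled intensity (log axis, arbitrary units) of the 5 genes on each of 12 arrays, in 4 groups of 3; replicates 1 to 3 run from left to right, horizontal marks are geometric means and bars 1 SD of log2 values, and open circles lie below the array's detection limit, with values under 3.96 drawn at that floor. Ccl2, Ccl7, Cxcl5 and Ackr3 stand higher on all 6 MLO-Y4 arrays, while Cxcl12 is lower there on average and spreads from the floor to 131.

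Of the 5 genes, 4 were higher on every MLO-Y4 array than on every 2T3 array, where 6.1% of all 5030 spots had that trait. Since the members were picked on this contrast, the count is a description. Percentiles do not depend on the scale, but they restate the same readings and are a description too. As a percentile among the spots of its own array, Ccl2 lay between 34.2 and 72.7 in 2T3 and between 95.7 and 98.9 in MLO-Y4. Ackr3 lay between 44.4 and 57.6 in 2T3 and between 89.8 and 94.8 in MLO-Y4. Cxcl12 lay between 82.3 and 94.1 in 2T3 and between 8.68 and 78.4 in MLO-Y4, without overlap, although its scaled intensities overlapped. The share of all spots that separate on percentiles was not counted.

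**Figure D2:**
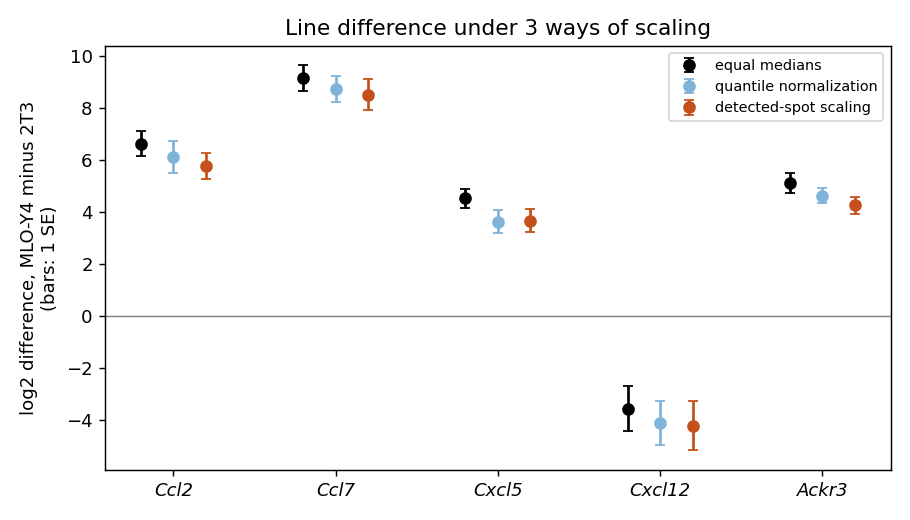
Log2 difference between MLO-Y4 and 2T3 over both densities for each gene under 3 ways of scaling the 12 arrays; bars are 1 SE of the fit. All 15 values keep their sign, and detected-spot scaling gives smaller positive differences than equal medians (Ccl2 at 5.77 against 6.62) and a larger fall for Cxcl12 (-4.23 against -3.56).

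Setting the ligand against its scavenger on the same array removes the array's scale except for values raised to the floor. From 2T3 to MLO-Y4, Ackr3 moved by 8.67 log2 more than Cxcl12 over both densities, by 7.17 at low density and by 10.17 in the dense groups. The value over both densities was 5.44 with an offset of 50 and 7.23 without both MLO-Y4 arrays numbered 1. At low density it was 5.61 without MLO-Y4 low replicate 1 and 8.45 without replicate 2, and in the dense groups 8.85 and 11.98 without MLO-Y4 high replicate 1 or 2. Within the MLO-Y4 line the arrays with the most Ackr3 had the least Cxcl12. Both arrays numbered 1 had the highest Ackr3 reading of their group and a Cxcl12 reading below the limit, and both arrays numbered 2 had the lowest Ackr3 (371 and 467) and the highest Cxcl12 (131 and 119). Over the 6 MLO-Y4 arrays the correlation of log2 levels was -0.89 and over the 6 2T3 arrays -0.42, given as a description, since same-numbered MLO-Y4 arrays also deviated together over all spots. Under detected-spot scaling the arrays numbered 2 still had the lowest Ackr3 of their group (293 and 463), but in MLO-Y4 high the highest Ackr3 was then on the array numbered 3 (730.0). The part of the array limits in this pattern was not tested.

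**Figure D3:**
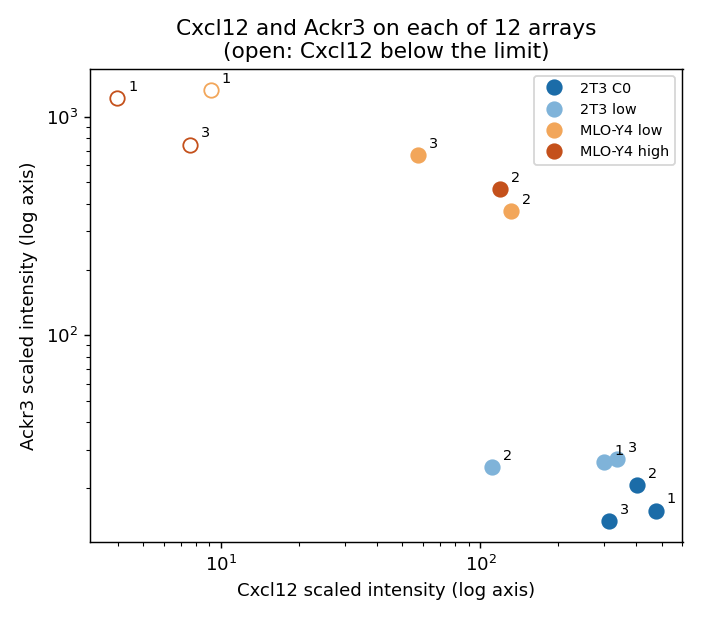
Scaled intensity of Cxcl12 (horizontal, log axis) against Ackr3 (vertical, log axis) on the 12 arrays, coloured by group and labelled with the replicate number; open circles are arrays with Cxcl12 below the limit. The 6 2T3 arrays lie at the lower right with Ackr3 from 14.2 to 27.3, and the 6 MLO-Y4 arrays lie above, with Ackr3 from 371 to 1323.

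Density was the comparison that the choice of genes left free. It asked whether sparse and confluent osteoblasts, or osteocytes with and without gap junctions, differed in these genes. None of the 5 genes passed the test in either line. limma called 0 of 5030 spots (0%) for C0 against low in 2T3, with 141 spots (2.8%) at an unadjusted p under 0.05. It also called 0 spots (0%) for high against low in MLO-Y4, with 116 (2.31%) at that level, and 0 spots (0%) for the difference between these effects, with 104 (2.07%). All 15 tests of the 5 genes had an adjusted p of 1. With 3 arrays a group these intervals are wide, and the tests do not show that density leaves the genes alike.

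Cxcl5 had the density effects with the smallest p-values of the 5, in opposite directions in the lines. In 2T3 it was 155 in C0 and 325 in low, a log2 difference of -1.07 (SE 0.50, 95% interval -2.17 to 0.03, limma adjusted p = 1). In MLO-Y4 it was 6841 in high and 3844 in low, a difference of 0.83 (SE 0.50, 95% interval -0.27 to 1.93, limma adjusted p = 1). The 3 MLO-Y4 high arrays lay above the 3 low arrays, as 1.61% of all spots did. That gap held with equal medians alone, since under detected-spot scaling the lowest high array (3886) lay below the highest low array (4356), and after quantile normalization they overlapped too. The 2T3 groups overlapped, since C0 replicate 3 lay above low replicate 1. The difference between the effects was 1.90 (SE 0.71, 95% interval 0.34 to 3.46), with an unadjusted p of 0.0213 and an adjusted p of 1 in limma. It was above 0 in each of the 20 alternative fits.

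Ackr3 was lower in 2T3 C0 than in 2T3 low on every array, 16.7 against 26.2 (log2 -0.65, SE 0.53, 95% interval -1.83 to 0.52, limma adjusted p = 1). Such a gap without overlap, downwards, was found at 3.46% of spots. The 2T3 readings are low, and that of low replicate 3 is a deposited 6. In MLO-Y4 the groups overlapped, and Ackr3 was 750.2 in high and 689 in low (0.12, SE 0.53, 95% interval -1.05 to 1.30). The readings of same-numbered MLO-Y4 arrays were close, with differences between high and low of -0.12, 0.33 and 0.16 for numbers 1, 2 and 3. In MLO-Y4 the spread of Ackr3 between numbers was thus wider than the difference between densities.

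Its ligand Cxcl12 had the density values with the largest SE. In 2T3 it was 390.3 in C0 and 223 in low (log2 0.81, SE 1.24, 95% interval -1.93 to 3.54). In MLO-Y4 it was 15.3 in high and 40.9 in low (-1.42, SE 1.24, 95% interval -4.15 to 1.31), with 1 and 2 of 3 arrays above their limits. Both pairs of groups overlapped. The fit gives a gene the same SE in both lines, from the spread within all 4 groups. The SD of Cxcl12 was 0.30 and 0.88 in 2T3 C0 and low, against 1.97 and 2.60 in MLO-Y4 low and high. Its 2T3 interval thus carries the MLO-Y4 spread. For Ackr3 these SDs were 0.28 and 0.06, against 0.92 and 0.69.

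Ccl2 and Ccl7 did not pass between densities either. In MLO-Y4, Ccl2 was 3106 in high and 1884 in low (log2 0.72, SE 0.70, 95% interval -0.81 to 2.26). In 2T3 it was 23.9 in C0 and 25.2 in low (-0.07, SE 0.70). Ccl7 was 3612 in MLO-Y4 high and 2911 in low (0.31, SE 0.71, 95% interval -1.25 to 1.87), and its 2T3 readings were mostly background. With equal medians, all 3 same-numbered differences between MLO-Y4 high and low were above 0 for Ccl2, Ccl7 and Cxcl5. They were 0.17, 1.43 and 0.56 for Ccl2, 0.11, 0.35 and 0.47 for Ccl7, and 1.43, 0.27 and 0.79 for Cxcl5. After quantile normalization Ccl7 had the same log2 level, 10.61, on both arrays numbered 1. How many of all spots share this trait was not counted. Over the groups, Ccl2, Ccl7, Cxcl5 and Ackr3 had the order MLO-Y4 high, MLO-Y4 low, 2T3 low, 2T3 C0 by geometric mean, and Cxcl12 had the reverse order with 2T3 C0 first. Neighbours in that order within a line overlapped, except for Ackr3 in 2T3, under all 3 scalings, and for Cxcl5 in MLO-Y4, with equal medians alone.

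**Figure D4:**
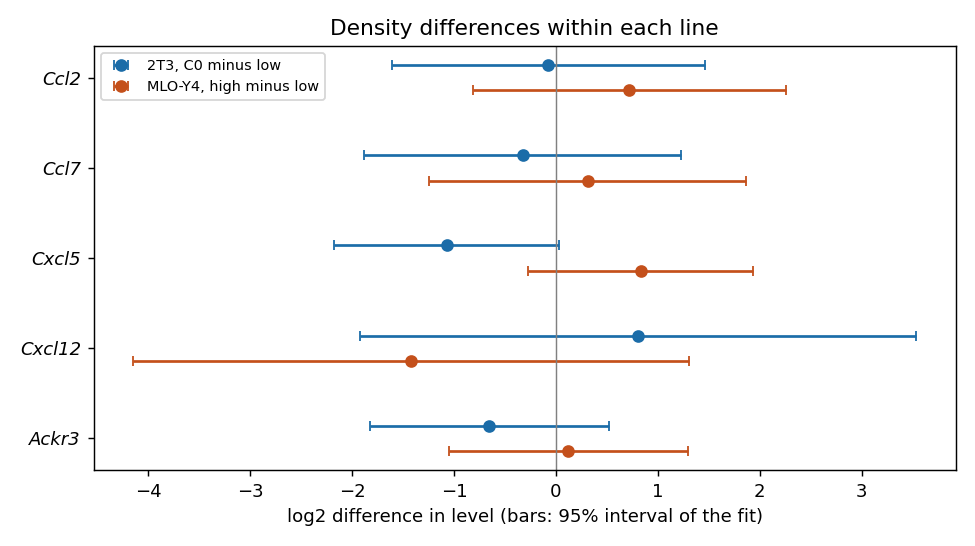
Log2 difference between densities for the 5 genes within 2T3 (C0 minus low) and within MLO-Y4 (high minus low), with 3 arrays a group; bars are 95% intervals of the limma fit. Every interval includes 0, and Cxcl5 in 2T3 comes nearest to leaving it (-2.17 to 0.03).

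The other genes of the pathway were taken from 4 lists that leave out the 5 members. With equal medians their counts are to be read against the shares of all spots given above (8.23% higher in MLO-Y4, 1.87% lower in limma), and the median over all spots was 0.11. Counts under the other scalings are to be read against the calls over all spots given with the markers. Of 27 other chemokine ligand genes, 5 rose in MLO-Y4 and 0 fell, with a median of -0.0017. Ccl5, a T cell and monocyte chemokine gene, rose 5.72-fold from 532 to 3043 (log2 2.52, SE 0.57, adjusted p = 0.0172). Its call was lost with quantile normalization (1.53, limma adjusted p = 0.157) and detected-spot scaling (1.66, 0.103). It was also lost without both MLO-Y4 arrays numbered 1 (0.0939). Cxcl9, an interferon-induced T cell chemokine gene, rose from 6.03 to 52.4 (3.12, SE 0.57, adjusted p = 0.00514), with a reading above background on 1 of 6 2T3 arrays. The neutrophil chemokine genes Cxcl1 (2.29) and Cxcl2 (1.85) rose, as did Ccl20 (2.00), a ligand of CCR6. These 3 calls were lost in 12 (Cxcl1), 14 (Cxcl2) and 15 (Ccl20) of 19 alternative fits. With the floor at the 50th percentile Cxcl1 was at 0.89 and Cxcl2 at 0.50, and they exceeded the limit on 2 and 3 of 6 2T3 arrays. The 22 other ligand genes did not pass.

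The count of ligand genes depended on the scaling, the floor and single arrays. It was 2 with the floor at the 50th percentile or an offset of 50. It was 3 with quantile normalization and 1, Cxcl9, with detected-spot scaling, and 1 again without both MLO-Y4 arrays numbered 1. It was 2 without 2T3 C0 replicate 2 or 3, 2T3 low replicate 2 or 3, MLO-Y4 low replicate 1 or MLO-Y4 high replicate 1 or 3, and 3 without MLO-Y4 low replicate 2 or 3. The count also rose in some fits, to at most 7 without 1 array and 6 in the other alternatives. Among the ligand genes Cxcl9 passed in all 19 alternative fits of this comparison. At high against low density in MLO-Y4, Cxcl9 was at 2.43 (unadjusted p = 0.0116, adjusted p = 1 in limma).

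Of 16 other chemokine receptor genes, 1 rose and 1 fell, with a median of -0.05. Cx3cr1, the receptor of the membrane-bound chemokine CX3CL1, rose from 4.72 to 159 (log2 5.07, SE 0.62, adjusted p = 4.61e-04), with readings above background on 1 of 6 2T3 and 6 of 6 MLO-Y4 arrays. Ccr6, the receptor of CCL20, fell from 41.1 to 6.33 (-2.70, SE 0.58, adjusted p = 0.0134). Its call was lost with the floor at the 50th percentile (adjusted p = 0.270), with an offset of 50 (0.0929) and without both MLO-Y4 arrays numbered 1 (0.0813).

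Among genes that shape the gradient or carry the receptor signal, 3 of 19 rose in MLO-Y4 and 0 fell, with a median of 0.31. The syndecan core protein genes Sdc1 (log2 3.41, SE 0.59, adjusted p = 0.00424) and Sdc4 (2.95, SE 0.50, adjusted p = 0.00383) rose 10.7-fold and 7.73-fold, and passed in all 19 alternative fits. Ext1, an enzyme gene of heparan sulphate chain synthesis, rose by 1.91, and that call was lost in 10 of 12 fits that left out 1 array, and under quantile normalization (adjusted p = 0.122) and detected-spot scaling (0.108).

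Genes of NF-kB signalling and of the cytokines that induce chemokines rose in 11 of 40 cases and fell in 0, with a median of 0.98, near the shift of detected spots given above. The counts were 9 and 0 with quantile normalization and 8 and 1 with detected-spot scaling. Over all spots these scalings called 289 higher and 173 lower, and 240 higher and 308 lower. Lif, an interleukin-6 family cytokine gene, rose from 4.96 to 210.1 (log2 5.41, SE 0.65, adjusted p = 4.30e-04). Il6 rose 13.1-fold (3.72, SE 0.60) and Stat3, the transcription factor downstream of both, 8.80-fold (3.14, SE 0.34). Lif, Il6 and Tlr2 exceeded the limit on no more than 2 of 6 2T3 arrays, so the size of their rise rests partly on background. The cytokine genes Tnf (-0.76), Il1b (-0.95) and Csf3 (-1.14) did not pass, and Il1a was above the limit on no array. Nor did the NF-kB subunit genes Rela (0.98), Relb (1.34) and Rel (0.22) pass.

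The receptor genes Tlr2, Tnfrsf1b and Il1r1 rose as well, while Tnfrsf1a (1.43, adjusted p = 0.0920), Il17ra (0.72) and Il1rap (-0.016) did not pass. The bacterial lipoprotein receptor gene Tlr2 was at 3.78 (SE 0.45), the TNF receptor gene Tnfrsf1b at 3.64 (SE 0.60) and the interleukin-1 receptor gene Il1r1 at 3.30 (SE 0.62). The inhibitor genes Nfkbia (2.67) and Tnfaip3 (2.69) also rose, while Nfkbib (1.82, adjusted p = 0.0556) and Nfkbie (-1.10) did not pass, and so did the transcription factor gene Cebpb (3.02). Nfkbia was lost with detected-spot scaling (adjusted p = 0.0666) and Tnfaip3 without both MLO-Y4 arrays numbered 1 (0.0688). Vcam1 (1.80), an adhesion molecule gene, and Csf1 (2.65), the macrophage growth factor gene, were each lost under both other scalings and in 9 of 12 fits that left out 1 array. Between densities limma called 0 genes of these 4 lists in either line, with 1 of 27 ligand genes in each line and 0 of the other lists at an unadjusted p under 0.05.

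**Figure D5:**
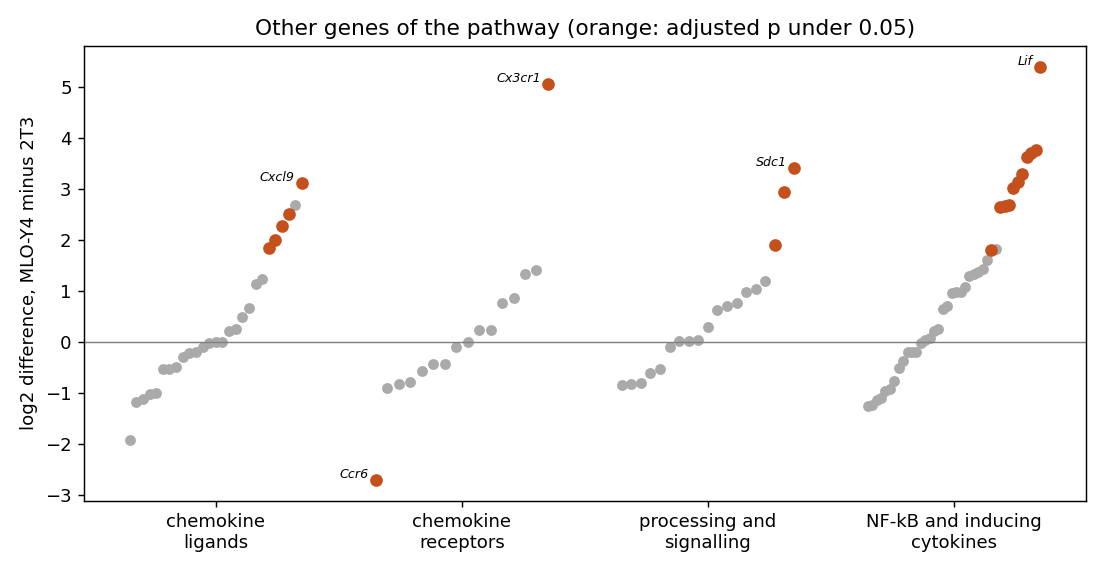
Log2 difference between MLO-Y4 and 2T3 for each measured gene of 4 lists that exclude the 5 members (27 ligands, 16 receptors, 19 processing and signalling genes, 40 NF-kB and cytokine genes), in order of size within a list; orange marks an adjusted p under 0.05 in limma, and names are given for the largest rise of each list and for Ccr6. The called genes number 5 of 27 ligands, 2 of 16 receptors, 3 of 19 processing and signalling genes and 11 of 40 NF-kB and cytokine genes, and Ccr6 is the one called lower.

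The genes closest to each member were taken by Pearson correlation of log2 level over the 12 arrays among 3628 other spots, a measure set mostly by the gap between the lines. For Ccl2 they were the interferon-induced GTPase gene Gbp2 (0.97), Ackr3 (0.97) and Cxcl5 (0.97). For Cxcl5 they were Ccl2 (0.97), Gbp2 (0.96) and Ackr3 (0.96). With each line's mean removed, Ccl2 correlated at 0.54 with Cxcl5, 0.38 with Ackr3, 0.25 with Gbp2 and -0.28 with its neighbour Ccl7, and Cxcl5 at 0.31 with both Gbp2 and Ackr3. The value for Ccl2 and Ccl7 joins -0.86 in 2T3, where Ccl7 was mostly background, and 0.69 in MLO-Y4, where every array detected both.

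For Ccl7 the closest were the acute-phase gene Saa3 (0.99), the receptor tyrosine kinase gene Ret (0.99) and the BMP family ligand gene Gdf5 (0.99). With line means removed these were 0.47, 0.72 and 0.73. For Ackr3 they were Gdf5 (0.99), the laminin chain gene Lama5 (0.99) and Mdm2, the ubiquitin ligase gene of p53 (0.98), and 0.80, 0.72 and 0.71 with line means removed. For Cxcl12, with the weakest likeness of the 5, they were the ubiquitin ligase gene Ubr1 (0.93), the egg-coat gene Zp3 (0.92) and the MYC antagonist gene Mxd3 (0.91). Those 3 kept 0.83, 0.80 and 0.78 with line means removed, and Ubr1 had a mean level of 184 in 2T3 and 17.2 in MLO-Y4. The identity of the closest genes was not stable. Of the 3 named, between 0 and 3 were found again in 17 alternative settings for Ccl2, Cxcl5, Cxcl12 and Ackr3, and between 1 and 3 for Ccl7.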

How the data were processed

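The deposited values are whole-number spot intensities, some below 0, of 12 arrays; that the authors subtracted a background is read from the values, and no scanner, software or normalization is named (not given in the sources used here). Total intensity per array ran from 212491 to 1680311, and the number of arrays limits precision. Of 5030 spots, 4633 carried 1 symbol in the platform annotation, 5 several and 392 none; 4624 symbols were updated by Entrez identifier. Arrays were scaled to equal medians, floored at the 25th percentile (3.96) and log2-transformed. limma 3.58.1 in R 4.3.3 (lmFit, eBayes) fitted 4 group means over 12 arrays with 8 residual degrees of freedom, two-sided, with Benjamini-Hochberg adjustment over 5030 spots at 0.05; every adjusted p in the text is limma's. The fit was tested on simulated data.

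Named were the 5 members, the 3 genes most like each, list genes passing the threshold and some list genes that did not pass. Members and lists were chosen with earlier results of these data known. Alternatives covered scaling, floor, filter, variance model, the replicate block and leaving out arrays. Same-numbered MLO-Y4 arrays deviated together (correlations across spots of 0.63, 0.48 and 0.51), a pairing seen in the data, not stated in the labels. No 2 arrays were identical.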

Additional observations from a re-analysis of the deposited data

How the results depend on the processing

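The 5 line differences kept their sign in all 19 alternatives. Quantile normalization moved Cxcl5 to 3.62, and detected-spot scaling moved it to 3.66 and Ackr3 to 4.25. A floor at the 50th percentile moved Ccl7 to 7.48, and an offset of 50 in place of the floor moved Ccl2 to 5.0, Ccl7 to 5.95 and Ackr3 to 3.44; both raise the low 2T3 values by construction. None of 300 alternative tests of density passed (lowest adjusted p = 0.860 in limma). The 2T3 difference of Ccl2 reversed to 0.18 with quantile normalization. Without 1 array it ran from -0.66 to 0.43, that of Ccl7 in 2T3 from -0.71 to 0.42 and in MLO-Y4 from -0.12 to 0.73, the difference of its effects from -0.11 to 1.05, and that of Ackr3 in MLO-Y4 from -0.32 to 0.59. With the floor at the 50th percentile 2 spots were called between the 2T3 groups in place of 0; the cause was not tested. Line calls numbered 508, against 462 after quantile normalization and 548 under detected-spot scaling, of which 81.5%, 62.6% and 43.8% were higher in MLO-Y4.

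With the replicate number within each line as a block, the density values are the same by construction (Cxcl5 at 0.83 in MLO-Y4, SE 0.41, adjusted p = 1 in limma) and no call changed; in 2T3 same-numbered arrays correlated at 0.07, 0.10 and 0.11, so the numbers there may not pair arrays. This block could not be fitted for the lines, since each number belongs to 1 line in it. The SEs and p-values of line differences thus take no account of the pairing in MLO-Y4. Leaving out both MLO-Y4 arrays numbered 1 was chosen after seeing the data. Low signal limits Ccl7 in 2T3 and Cxcl12 in MLO-Y4 most.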

Other observations

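Of the markers of other cell types, 6 of 12 macrophage and osteoclast genes, 4 of 9 endothelial genes and 3 of 7 T and B cell genes were above the limit on 3 or more arrays, among them the protease gene Ctsk on 12 and the B cell receptor gene Cd79a on 10. In the comparison of the lines 1 gene of each list passed. Ms4a1, the B cell surface gene that encodes CD20, was 30.6-fold higher in MLO-Y4, from a mean of 18.1 to 554 (log2 4.94, SE 0.45, limma adjusted p = 5.85e-05), while the 6 other measured T and B cell markers did not pass. Eng, the endothelial co-receptor gene of the TGF-beta family, was 53.0-fold higher in MLO-Y4 (5.73, SE 0.60, limma adjusted p = 1.57e-04), and the 8 other endothelial markers did not pass. Both genes passed in all 19 alternative fits. Tyrobp, a signalling adaptor gene of myeloid cells, was lower in MLO-Y4 (-3.03, SE 0.63, limma adjusted p = 0.0110), 67.3 against 8.25, and lost its call without both MLO-Y4 arrays numbered 1 (adjusted p = 0.0574). Summed over their lists, the T and B cell markers ranged from 154 to 317 on 2T3 arrays and 543 to 1003 on MLO-Y4 arrays, and the endothelial markers from 136 to 266 and 625 to 2118. These sums add unlogged levels, so Ms4a1 and Eng (mean 17.4 in 2T3, 924 in MLO-Y4) weigh most in them. The median line difference was 0.20 for the T and B cell list and -0.32 for the endothelial list, against 0.11 over all spots. The part of these marker genes in the chemokine differences was not tested.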
